A study of Arabidopsis thaliana with 12 samples.

Results

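The independent transgenic lines 35S:KLU1 and 35S:KLU2, which both overexpress KLU, were compared with each other. The comparison used the 3 libraries of 35S:KLU2 and the 3 libraries of 35S:KLU1, that is 6 of the 12 libraries of the series. Of the 33323 genes in the expression table, 23635 had a value above 0 in at least 1 of the 6 libraries, and the 19188 genes that reached 0.5 FPKM in at least 3 of them were tested. FPKM, which counts fragments per length of transcript and per depth of the library, is a level that can be compared between genes.

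All plants were Arabidopsis (Arabidopsis thaliana) of the Col-0 background, and RNA was taken at 35 DAG (days after germination) from whole rosettes grown in short days, which the labels name as leaf. Both lines carried the full-length coding sequence of KLU fused to GFP behind the 35S promoter of cauliflower mosaic virus, which is active in most cells of the plant, so the transgene was not limited to the places where KLU is normally transcribed. Each line descended from its own transformation event, was selected on kanamycin and kept its endogenous KLU gene. The other groups, used here only to give levels, were untransformed Col-0 and klu, a T-DNA insertion mutant of the same gene, with 3 libraries each. Every library came from an individual plant, and each line stood for a single event. Differences between the lines can therefore belong to the place of insertion, to the transgene or to the descent of the seed, and these cannot be told apart here.

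KLU is the cytochrome P450 CYP78A5. It acts in a mobile growth signal whose chemical identity is not known, and its loss gives smaller leaves and floral organs that stop dividing early. A 35S transgene lands at a position that differs from line to line, and its neighbours, its copy number and its silencing can differ too. For that reason a trait of an overexpressor is usually read from more than 1 line, and the comparison of the lines measures how far their transcriptomes differ while the transgene is the same.

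The level of KLU did not differ beyond the spread between plants. KLU stood at 1729, 2149 and 2274 FPKM in the libraries of 35S:KLU1 and at 2021, 2644 and 2890 FPKM in those of 35S:KLU2. The ranges overlapped. The difference, 35S:KLU2 minus 35S:KLU1, was 0.29 on the log2(FPKM + 1) scale with a 95% interval of -0.04 to 0.62 (adjusted p = 0.518), so a difference anywhere in that interval was not resolved. Reads of the transgene and of the endogenous gene were counted together. The relatives CYP78A6 and CYP78A9, which also act in organ and seed growth, differed by 0.07 (interval -0.19 to 0.34) and 0.02 (interval -0.23 to 0.27), and CYP78A7, CYP78A8 and CYP78A10 were under the filter.

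Of the 19188 genes, 7 differed at an adjusted p under 0.05 (0.0365% of those tested), with 1 higher in 35S:KLU2 (0.00521%) and 6 lower (0.0313%). They were MRD1, higher in 35S:KLU2, and MAF5, a protein kinase gene of the RIO family, a defensin-like gene, a transposable element gene, a pseudogene and a gene without a name, AT3G54363, all lower in it. The filter of 0.5 FPKM in 3 libraries can be met by a single line. MRD1 met it only through 35S:KLU2, and AT5G35935, AT3G54363, AT3G53403 and AT4G22230 met it only through 35S:KLU1. A model of all 12 libraries, in which Col-0 and klu add to the estimate of the spread, called 2 of them, AT2G24990 and AT3G53403, and gave an adjusted p of 0.317 for MRD1, 0.818 for MAF5 and AT3G54363, 0.453 for AT5G35935 and 0.855 for AT4G22230. Leaving out 1 library at a time gave 5 to 11 called genes, with 11 without the first library of 35S:KLU2. The median 95% interval extended 0.209 to either side of the difference, and the interval lay within ±1 for 18834 genes (98.2%). It was wider for low transcripts, with a half-width of 0.385 under 1 FPKM against 0.14 above 100 FPKM.

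The libraries did not differ much in breadth, but most genes stood slightly higher in 35S:KLU2. Between 19053 and 19179 genes reached 0.5 FPKM in each of the 6 libraries, and the FPKM summed to 1121235 to 1126598 in 35S:KLU1 and to 1173362 to 1185791 in 35S:KLU2. The median difference over all tested genes was 0.066, with 74.9% of the genes above 0, and fell to -0.001 after median-of-ratios scaling. At an unadjusted p under 0.05 there were 1821 genes higher in 35S:KLU2 (9.49%) and 205 lower (1.07%), and that scaling gave 628 and 530. The adjusted calls were the same 7 genes after it. From the steps of low values, 1 fragment was worth 0.87 to 1.123 in the libraries of 35S:KLU1 and 1.062 to 1.451 in those of 35S:KLU2, relative to the first library of 35S:KLU1, a higher value meaning fewer fragments. Total fragment counts were not known.

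**Figure D1:**
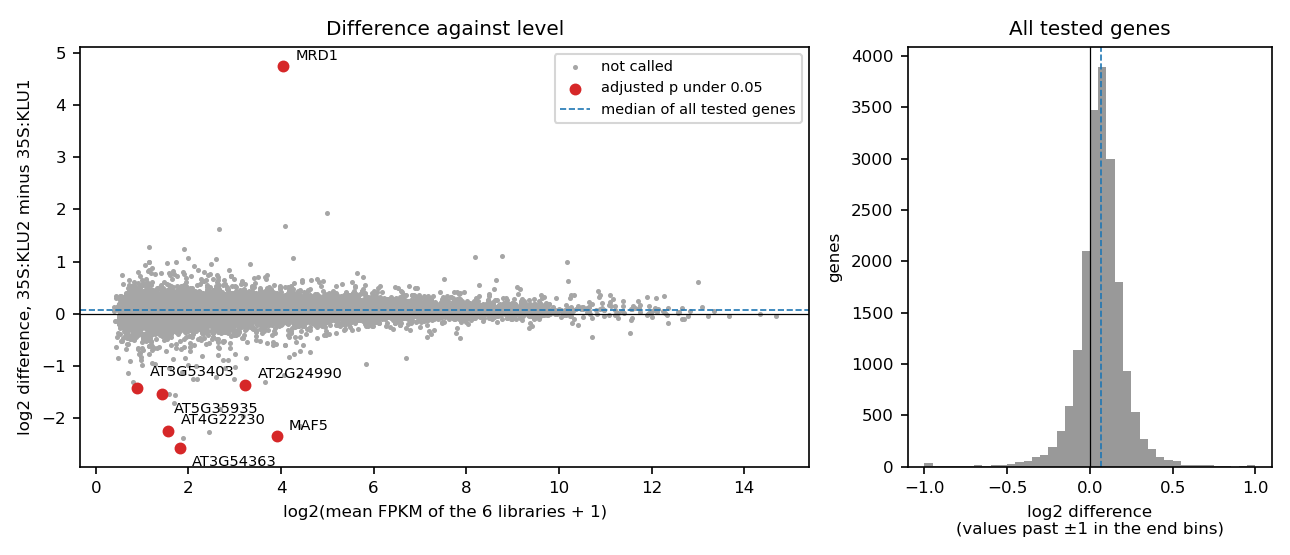
Left, difference between the lines (35S:KLU2 minus 35S:KLU1, log2(FPKM + 1) scale) against the mean level of each of the 19188 tested genes, with the 7 genes at an adjusted p under 0.05 in red and named. Right, a histogram of the same differences, with values past ±1 in the end bins and a dashed line at the median, 0.066; 40 genes lay more than 1 from 0.

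MRD1 was the one gene called higher in 35S:KLU2. MRD1 (AT1G53480) is annotated for its lower level in mto1, a mutant that accumulates methionine. It was listed at 0.17, 0.27 and 0 FPKM in the plants of 35S:KLU1 and at 19.55, 33.87 and 39.35 FPKM in those of 35S:KLU2. The lines were far apart, with means of 0.147 ± 0.137 and 30.9 ± 10.2 FPKM (SD, n = 3). The difference was 4.75 (SE 0.23, adjusted p = 0.000319), and it rose to 7.11 with a pseudocount of 0.1, because 35S:KLU1 was near 0. Col-0 was listed at 0.18, 0.07 and 0.07 FPKM. One klu library stood at 15.26 FPKM beside 0 and 0.19 FPKM in the others, so a high level also occurred in 1 plant without the transgene.

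MRD1 lies on chromosome 1 at 19963047 to 19964712 on the minus strand (TAIR10.1). Its exons share 922 of 1250 bases, 73.8%, with those of HEI10 (AT1G53490) on the opposite strand at 19963267 to 19966952. HEI10 is a RING-finger protein that promotes crossovers in meiosis. It stood at 0.62, 1.01 and 0.73 FPKM in the plants of 35S:KLU1 and at 2.36, 1.46 and 2.33 FPKM in those of 35S:KLU2, without overlap, and Col-0 stood at 0.58 to 0.78 FPKM. The difference of 0.76 (interval 0.38 to 1.14) did not pass the test (adjusted p = 0.264). The libraries were made with a kit that marks strand, but the strand setting of the counting is not given in the sources used here, so reads of the shared exons cannot be assigned with certainty and the values of both genes are uncertain.

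MAF5 was lower in 35S:KLU2. MAF5 (AT5G65080) encodes a MADS-box protein related to FLC, a repressor of flowering, and is the last gene of a tandem cluster on chromosome 5 that begins with MAF2. It stood at 25.07, 20.67 and 26.26 FPKM in the plants of 35S:KLU1 and at 5.18, 2.93 and 3.73 FPKM in those of 35S:KLU2. The lines did not overlap, and the difference was -2.36 with an interval of -2.73 to -1.98 (SE 0.16, adjusted p = 0.00196). The other genotypes varied, with Col-0 at 1, 4.73 and 3.41 FPKM and klu at 0.69, 23.89 and 4.77 FPKM. In 35S:KLU1 all 3 libraries stood high, whereas 1 of the 6 libraries of Col-0 and klu reached its lowest level.

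The other members of the cluster were measured next to it. MAF4 (AT5G65070), at 25992193 to 25996202 against 25997504 to 26002619 for MAF5, also stood lower, at 6.82, 4.16 and 5.12 FPKM in the plants of 35S:KLU1 and 1.52, 1.19 and 2.34 FPKM in those of 35S:KLU2, but its difference of -1.25 (interval -1.70 to -0.80) did not pass the test (adjusted p = 0.171). The klu library with the high MAF5 level was the one with the highest MAF4 level in klu, 4.36 FPKM against 0.63 and 1.06 FPKM. MAF3 stood at 17.32, 13.68 and 14.09 against 15.70, 19.34 and 19.52 FPKM, and its difference was 0.26 (adjusted p = 0.471). MAF2, annotated as AGL31, differed by 0.05 with an interval of -0.13 to 0.24. The lines thus differed at MAF4 and MAF5, the 2 genes at the end of the cluster, of which MAF5 passed the test. Col-0 stood at 1.90, 0.91 and 1.37 FPKM for MAF4. Against Col-0, 35S:KLU1 stood higher by 1.411 for MAF4 and 2.75 for MAF5, and 35S:KLU2 by 0.163 and 0.395. The line farther from Col-0 at both genes was therefore 35S:KLU1.

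The stretches before the annotated starts of MAF5 and MAF4 were compared because these neighbours moved the same way. The windows of 250 bases, read from RefSeq TAIR10.1, were 80.7% identical over the 212 bases that aligned, and the longest run found in both, 20 bases long, is in capitals. It starts 112 bases before the annotated start of MAF5 and 143 bases before that of MAF4 and is not in the windows of MAF2 or MAF3. Of 26711 such windows of protein-coding genes 2 hold it (0.0075%), which are these same windows. Since the run was chosen as shared by them, that count is a description only. The windows lie at chr5:25997254-25997503 for MAF5 and chr5:25991943-25992192 for MAF4, on the plus strand.
MAF5: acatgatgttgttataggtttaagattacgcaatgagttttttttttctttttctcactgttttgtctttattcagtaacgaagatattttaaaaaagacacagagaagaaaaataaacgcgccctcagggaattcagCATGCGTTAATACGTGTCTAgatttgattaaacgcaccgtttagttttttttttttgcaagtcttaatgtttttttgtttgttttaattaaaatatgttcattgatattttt
MAF4: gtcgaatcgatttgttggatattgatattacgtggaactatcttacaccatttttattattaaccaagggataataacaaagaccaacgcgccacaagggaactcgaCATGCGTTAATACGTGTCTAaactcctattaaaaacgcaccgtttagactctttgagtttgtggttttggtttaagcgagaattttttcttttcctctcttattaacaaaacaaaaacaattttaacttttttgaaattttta
The 20-base run is a description of the letters, and no factor was matched to it. The coding sequences of the genes were 86.9% identical, with a longest identical run of 43 bases.

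**Figure D2:**
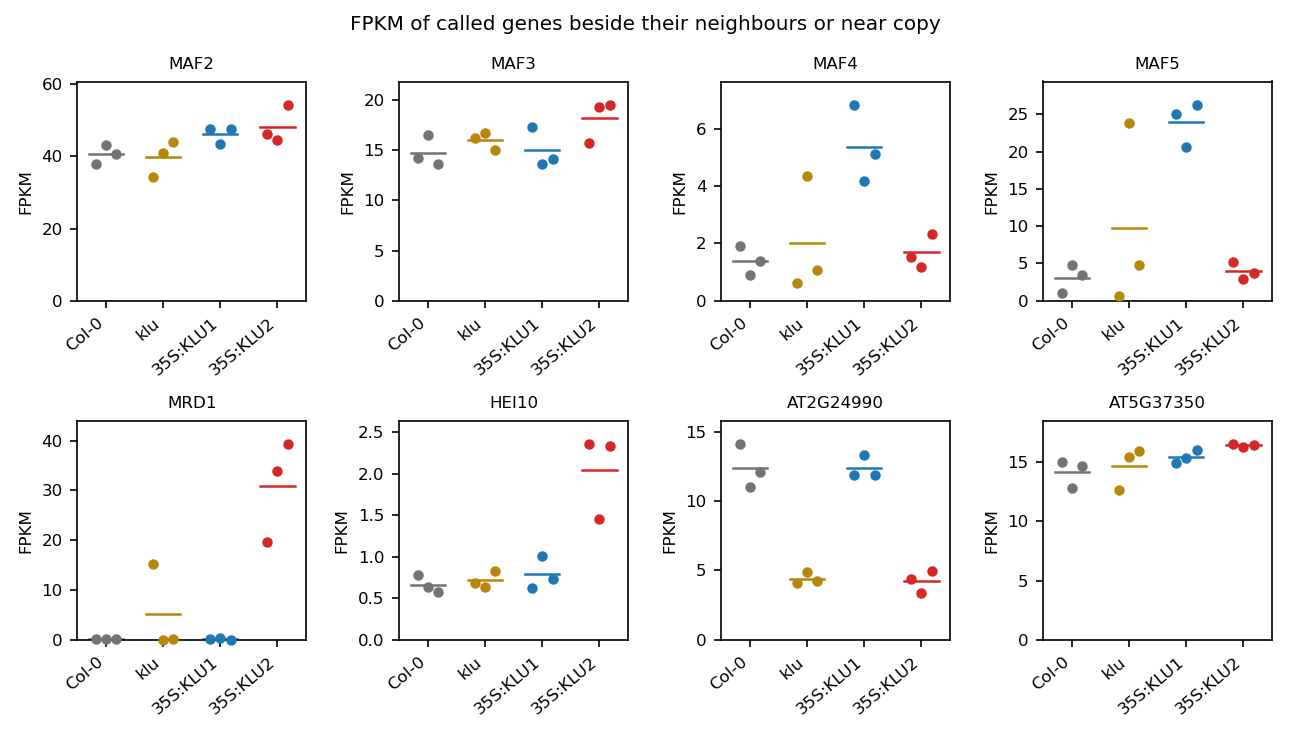
FPKM (linear axes from 0) of MAF2 to MAF5, of MRD1 and HEI10 and of AT2G24990 and its copy AT5G37350 in the 4 genotypes, with a dot for each library and a bar for the mean of 3. MAF4 and HEI10 stood on the same side as the called gene beside them, and the intervals of MAF2 and AT5G37350 held 0.

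AT2G24990, which encodes a protein kinase of the RIO family, a group whose yeast members act in maturation of the small ribosomal subunit, was lower in 35S:KLU2. It stood at 11.92, 13.37 and 11.92 FPKM in the plants of 35S:KLU1 and at 4.35, 3.41 and 4.99 FPKM in those of 35S:KLU2. The difference was -1.36 with an interval of -1.64 to -1.08 (adjusted p = 0.00892). The levels in klu, 4.09, 4.86 and 4.25 FPKM, stood with those of 35S:KLU2, and the levels in Col-0, 14.14, 11.05 and 12.08 FPKM, stood with those of 35S:KLU1. It lies on chromosome 2 at 10625163 to 10628598. A second copy, AT5G37350, is 95% identical in coding sequence over 1596 bases and stood at 14.96, 15.39 and 16.00 against 16.54, 16.26 and 16.47 FPKM, so its difference was 0.08 (interval -0.06 to 0.23). The longest identical run of the coding sequences was 110 bases, shorter than a full-length read of the study. How reads were divided between the copies was not tested. The call of AT2G24990 was lost without the second or the third library of 35S:KLU1 (adjusted p = 0.0552 and 0.0583) and without the filter (0.0512).

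AT5G35935, a transposable element gene annotated as a pseudogene with a transcript of 6504 bases, was lower in 35S:KLU2 as well. It stood at 3.28, 2.71 and 2.98 FPKM in the plants of 35S:KLU1 and at 0.35, 0.31 and 0.43 FPKM in those of 35S:KLU2. Its difference was -1.55 (adjusted p = 0.00463), or -2.74 with a pseudocount of 0.1, since 35S:KLU2 stood under 1 FPKM. Col-0 was near 0, at 0.02, 0.02 and 0.03 FPKM, and klu was at 1.81, 0.07 and 0.05 FPKM, so the 3 plants of 35S:KLU1 stood above all of the other libraries. Transposable elements are commonly held silent by DNA methylation and small RNAs. None of the 22 tested genes of DNA methylation and none of the 20 tested genes of RNA silencing reached an unadjusted p under 0.05. The differences of the methylation genes ran from -0.06 to 0.15 and those of the RNA silencing genes from -0.104 to 0.175. Methylation and small RNAs at AT5G35935 were not measured, so their part in its level was not tested.

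The remaining called genes were at 0 in all libraries of 35S:KLU2, and for them no fold is given, as the size of the difference depends on the pseudocount. AT3G54363 was listed at 4.88, 6.25 and 3.90 FPKM in the plants of 35S:KLU1 (difference -2.57, adjusted p = 0.00115, or -5.65 with a pseudocount of 0.1). It was listed at 0 in 4 of the 6 libraries of Col-0 and klu and at 5.77 and 7.67 FPKM in the others. AT4G22230, which encodes a defensin-like peptide of a large family of small secreted proteins, was listed at 3.74, 2.32 and 5.72 FPKM in the plants of 35S:KLU1 (difference -2.24, adjusted p = 0.0217), and its call held in 2 of the 6 fits that left out a library, those without the second and without the third library of 35S:KLU1. Of the 6 libraries of Col-0 and klu, 4 listed it at 0 and the others at 3.13 and 15.87 FPKM. Both genes were thus at 0 in some plants and above 0 in others outside the lines too, and AT4G22230 stood higher in 1 klu plant than in any plant of 35S:KLU1.

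AT3G53403, annotated as a pseudogene of LUL2, was listed at 1.97, 1.42 and 1.73 FPKM in the plants of 35S:KLU1 and at 0 in the 9 other libraries of the series. Its difference was -1.43 (adjusted p = 0.0164), and 1 of the 6 fits that left out a library kept the call, the one without the second library of 35S:KLU2 (adjusted p = 0.0486, against 0.0552 to 0.135 in the others). LUL2 (AT3G53410), which encodes a RING-type E3 ubiquitin ligase, lies next to it and differed by -0.07. The transcript of the pseudogene aligns to the coding sequence of LUL2 over 271 bases, of which 234 are identical (86.3%), with a longest identical run of 23 bases. Both stretches are shown because reads of the pseudogene are told from those of LUL2 by these bases. Capitals mark aligned bases that differ, bases opposite a gap stay in lower case, the pseudogene stretch lies at chr3:19800417-19800697 on the minus strand, and the gene of LUL2 lies at chr3:19800951-19802328 on the minus strand.
AT3G53403: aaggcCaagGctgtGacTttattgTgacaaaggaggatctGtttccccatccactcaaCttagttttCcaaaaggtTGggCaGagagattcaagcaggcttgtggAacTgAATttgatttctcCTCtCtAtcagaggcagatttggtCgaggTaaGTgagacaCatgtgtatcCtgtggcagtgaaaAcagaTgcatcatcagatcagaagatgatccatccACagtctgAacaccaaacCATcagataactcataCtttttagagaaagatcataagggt
LUL2: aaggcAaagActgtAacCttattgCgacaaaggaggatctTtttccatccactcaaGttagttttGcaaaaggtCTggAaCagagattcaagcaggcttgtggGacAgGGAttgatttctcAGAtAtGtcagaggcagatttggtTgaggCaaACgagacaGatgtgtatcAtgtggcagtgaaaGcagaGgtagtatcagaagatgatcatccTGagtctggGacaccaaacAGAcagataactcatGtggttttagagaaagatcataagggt
LUL2 itself was listed at 12.47 FPKM or more in all 12 libraries. Of the tested genes up to 2 places to either side of a called gene none was called itself, and MAF4 had the smallest adjusted p, 0.171.

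**Figure D3:**
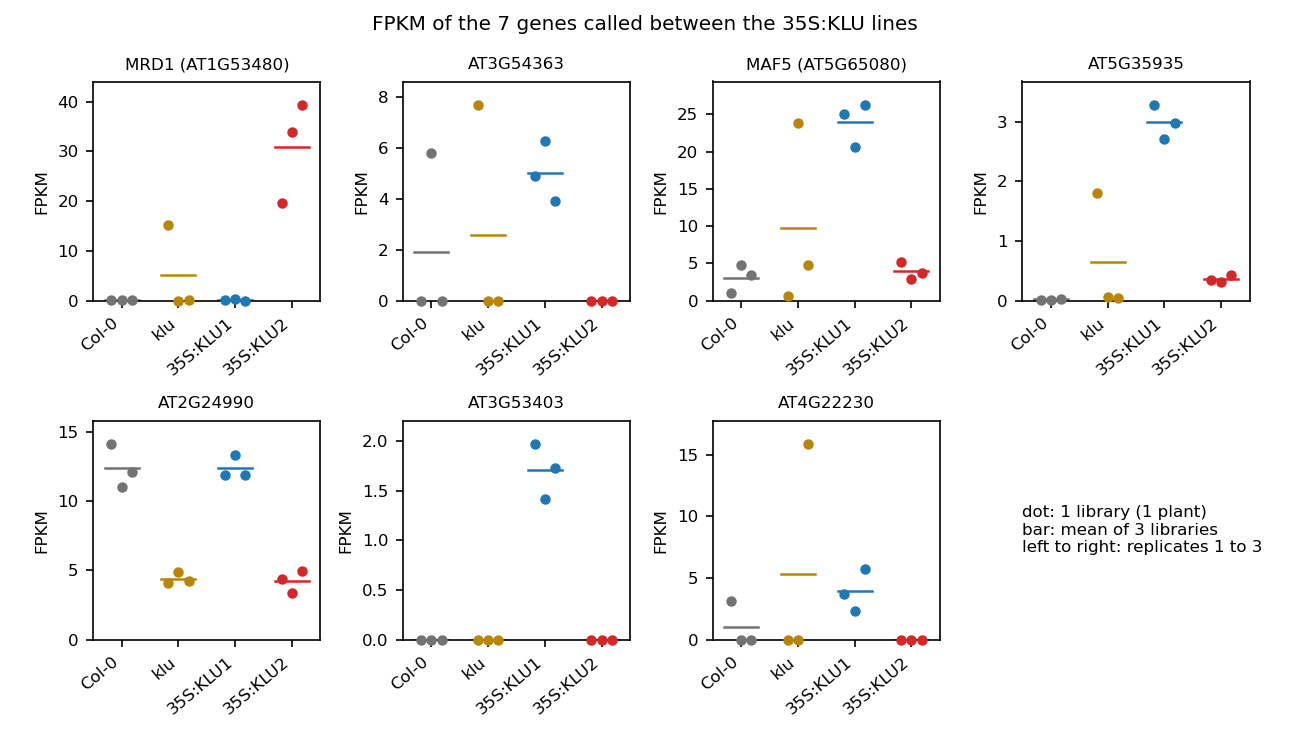
FPKM (linear axes from 0) of the 7 called genes in each of the 12 libraries, with a dot for each plant and a bar for the mean of 3. The lines do not overlap in any panel. Single klu plants reach the level of 35S:KLU1 for MAF5, AT3G54363 and AT4G22230, and single Col-0 plants do so for AT3G54363 and AT4G22230.

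Short transcripts were at 0 more often than long ones in these libraries. Among genes that reached 5 FPKM in at least 1 of the 6 libraries, 35 of 113 with a transcript under 500 bases (31%) were listed at 0 in another library of the 6, against 30 of 1933 (1.55%) from 500 to 1000 bases and 8 of 13014 (0.06%) at 1000 bases and over. AT3G54363, AT3G53403 and AT4G22230 had transcripts of 468, 326 and 369 bases. AT3G54363 and AT4G22230 are themselves among the 35, and AT3G53403 did not reach 5 FPKM and is not among the 113. The part of transcript length in these 3 calls was not tested. The other 4 called genes had transcripts of at least 1000 bases.

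RCI2B stood at 0 in 35S:KLU2 too but did not pass the test. RCI2B (AT3G05890), which encodes a small membrane protein induced by cold and salt, was listed at 7.97, 0.88 and 7.42 FPKM in the plants of 35S:KLU1 and at 0 in the 3 libraries of 35S:KLU2, with a difference of -2.38 (interval -3.57 to -1.2, adjusted p = 0.264). The second library of 35S:KLU1 was low, and without it the difference was -3.12 (adjusted p = 0.000752). Col-0 stood at 7.21, 3.53 and 9.70 FPKM and klu at 15.79, 17.34 and 23.58 FPKM, so the 0 set 35S:KLU2 apart from all the other groups. Its neighbour RCI2A, which encodes a close relative, stood at 196, 137 and 211 FPKM in the plants of 35S:KLU1 and at 194, 260 and 223 FPKM in those of 35S:KLU2, and differed by 0.33 (interval -0.04 to 0.70). The coding sequences are shown because the copies differ at 26 of 165 bases, with a longest shared run of 22 bases, so reads are told apart by these bases and by the ends of the transcripts. Capitals mark the bases that differ. RCI2B lies at chr3:1758179-1758452 and RCI2A at chr3:1756195-1756494, both on the minus strand.
RCI2B: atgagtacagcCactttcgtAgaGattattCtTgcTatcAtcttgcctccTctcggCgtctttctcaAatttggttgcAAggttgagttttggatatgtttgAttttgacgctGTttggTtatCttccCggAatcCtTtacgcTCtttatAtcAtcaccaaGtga
RCI2A: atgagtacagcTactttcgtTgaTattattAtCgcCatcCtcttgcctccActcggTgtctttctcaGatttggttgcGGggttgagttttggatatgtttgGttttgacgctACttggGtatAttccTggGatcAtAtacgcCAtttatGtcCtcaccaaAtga
AT1G61280 was also at 0 in 35S:KLU2, against 1.24, 2.01 and 1.23 FPKM in the plants of 35S:KLU1. It stood at 1.22 to 5.36 FPKM in all 6 libraries of Col-0 and klu, and its difference of -1.30 did not pass the test (adjusted p = 0.078).

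Over all tested genes, plants of different lines were about as far apart as plants of 35S:KLU2 and slightly farther than plants of 35S:KLU1. The root mean square of the difference in log2(FPKM + 1) was 0.241 to 0.295 between a library of 35S:KLU1 and a library of 35S:KLU2, with means of 0.274 between the lines, 0.245 within 35S:KLU1 and 0.274 within 35S:KLU2.

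Beyond the called genes, 19 genes had an adjusted p from 0.05 to 0.2. MT3, which encodes a metallothionein that binds metal ions in leaves, was among them, at 6835, 5984 and 6735 FPKM in the plants of 35S:KLU1 and 9175, 10671 and 10152 FPKM in those of 35S:KLU2, a difference of 0.62 (interval 0.41 to 0.83, adjusted p = 0.17). The lines did not overlap. ELF4-L4, a relative of the clock gene ELF4, differed by 0.42 (adjusted p = 0.17). RTFL12, which encodes a small peptide of a family that limits cell proliferation in leaf organs, stood at 2.73, 1.79 and 1.65 against 4.81, 5.05 and 4.24 FPKM, a difference of 0.91 (adjusted p = 0.184), while Col-0 stood at 9.02 to 9.24 FPKM.

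Among genes of at least 1 FPKM whose lines did not overlap, the largest differences are given as a description, since the choice was made on the same values. All 3 libraries of 35S:KLU2 lay above those of 35S:KLU1 for 2873 genes (15%) and below them for 346 (1.8%). After MRD1, AT5G39240 stood highest, at 5.32, 5.55 and 6.77 against 8.51, 21.45 and 47.97 FPKM (difference 1.67), and 1 library of 35S:KLU2 stood far above the others. PDF1.2c, a defensin that responds to jasmonate and ethylene, stood at 284, 116 and 161 against 292, 302 and 576 FPKM (difference 1.08, adjusted p = 0.373), and its relative PDF1.2 differed by 0.99. The coding sequences of PDF1.2c and PDF1.2 differ at 16 of 243 bases, with a longest identical run of 52 bases. How reads were divided between these genes was not tested. MAPR2, a membrane-associated progesterone-binding protein, differed by 1.07, and AT2G21187 and AT1G03660 had differences of -1.82 and -2.27. Of these genes none but MRD1 passed the test.

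Genes of pathways that the study names, and of other families, processes and tissue markers, were then read from 34 lists, of which 496 of 593 genes were tested. Of these, 0 were called higher and 2, MAF5 and AT2G24990, lower. At an unadjusted p under 0.05, 45 were higher and 11 lower, and the interval lay within ±1 for 480. The share higher, 45 of 496, was near the 9.49% of all genes tested. The share lower, 11 of 496, was above the 1.07% of all genes, and the share called lower, 2 of 496, was above 0.0313%. The list of Rio1 kinase genes holds only AT2G24990 and its copy, and the lists were chosen with earlier results known. The called share is therefore a description only.

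Cytokinins are hormones that promote division of cells in shoots and delay leaf ageing, and they are sensed by histidine kinase receptors, passed on by AHP proteins and read out by type-B and type-A response regulators. Of 9 tested genes of cytokinin synthesis and activation and 9 of breakdown and conjugation, none reached an unadjusted p under 0.05. CKX1 and CKX4, cytokinin oxidases that degrade the hormone, differed by 0.08 (interval -0.22 to 0.37) and -0.18 (interval -0.43 to 0.07). Of 8 receptor and phosphotransfer genes 3 reached it, all higher in 35S:KLU2, with AHP4 at 28.66, 26.60 and 34.97 against 33.18, 38.99 and 43.65 FPKM (difference 0.35, adjusted p = 0.398). After median-of-ratios scaling 2 of the 8 were higher at that threshold, and without scaling 9.49% of all tested genes were. None of the 8 type-A response regulators reached an unadjusted p under 0.05. Their medians against Col-0 were -1.15 in 35S:KLU1 and -0.96 in 35S:KLU2, and both values share the 3 Col-0 libraries.

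The 16 genes of proline, arginine and ornithine metabolism, which covers the synthesis of an amino acid that gathers under drought, all had intervals within ±1. Their differences ran from -0.07 to 0.24, with P5CS1, the first enzyme of proline synthesis, at the top (0.24, interval -0.13 to 0.60), and none reached an unadjusted p under 0.05. None of the 19 tested genes of nitrate transport and assimilation did either.

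Among defence genes, the lists of jasmonate, of salicylic acid and of camalexin and glucosinolates each held a few members at an unadjusted p under 0.05. None held a member at an adjusted p under 0.05. Of 26 jasmonate genes 3 were higher and 1 lower in 35S:KLU2, and of 22 salicylic acid genes 3 and 1. Of 19 camalexin and glucosinolate genes 2 were higher and 0 lower. The shares higher were near the 9.49% of all tested genes, of which 1.07% were lower. After median-of-ratios scaling the counts were 1 and 1, 2 and 3, and 1 and 0. FMO1, which acts in systemic acquired resistance, stood at 8.05, 6.60 and 7.86 against 10.88, 12.83 and 9.59 FPKM (difference 0.50, adjusted p = 0.282), without overlap. CYP71A13 and PAD3, enzymes of camalexin, differed by 0.56 and 0.53. MYC2, the transcription factor at the centre of the jasmonate response, differed by -0.32, and PR2, annotated as BGL2, by -0.44.

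No cold-responsive gene was called, but their median lay above that of all genes. Of 18 tested, 7 reached an unadjusted p under 0.05, all of them higher, against 9.49% of all tested genes higher. The median difference was 0.20 against 0.066 over all genes. KIN2 stood at 1011, 775 and 969 against 1057, 1616 and 1627 FPKM (difference 0.62, adjusted p = 0.348). After median-of-ratios scaling the count was 4 higher and 1 lower, and the median 0.13. Leaving out a library of 35S:KLU1 moved both, to 11 higher and a median of 0.29 without the first and to 4 higher, 1 lower and a median of 0.11 without the second. Without the first library of 35S:KLU2 the count was 4 higher and 1 lower, and the model of all 12 libraries gave 3 higher.

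Circadian clock genes held members in both directions. Of 22 tested genes 6 were higher and 1 lower at an unadjusted p under 0.05, with 5 and 2 after scaling, and none was called. The shares over all tested genes, without scaling, were 9.49% and 1.07%. ELF4, a part of the evening complex of the clock, stood at 40.67, 34.29 and 41.33 against 52.78, 63.03 and 54.07 FPKM (difference 0.54, adjusted p = 0.207). PRR9, a morning gene, stood at 20.99, 18.97 and 19.01 against 14.54, 12.65 and 15.33 FPKM (difference -0.45, adjusted p = 0.213). The lines did not overlap for either. FKF1, TOC1 and PRR3, genes that peak in the afternoon or evening, differed by 0.39, 0.26 and 0.28. The hour at which each plant was collected is not given in the sources used here, so its part in these values was not tested.

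The median difference of the heat shock proteins was -0.26, and it moved with each library of 35S:KLU1. HSP90.1, a chaperone, stood at 8.22, 32.86 and 28.52 against 6.62, 8.72 and 9.72 FPKM (difference -1.18, adjusted p = 0.412), and HSP70 (AT3G12580) at 6.87, 47.61 and 36.25 against 7.48, 12.44 and 9.61 FPKM. The first library of 35S:KLU1 was the low one, and it was the lowest of 35S:KLU1 for 11 of the 16 tested members. Without it, HSP90.1, HSP70 and HSP17.6A passed the test (adjusted p = 0.0159, 0.0313 and 0.0135), and the median was -0.46, whereas without the second or the third library of 35S:KLU1 the median was -0.13 and 1 or 2 members were lower at an unadjusted p under 0.05. With all 6 libraries, 3 members reached an unadjusted p under 0.05, all lower, against 1.07% of all tested genes lower, and none was called.

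KLU is known to prolong cell proliferation in growing organs. At an unadjusted p under 0.05, 9.49% of all tested genes were higher and 1.07% lower, and the median over all was 0.066. Of 29 tested cell cycle genes, 8 reached an unadjusted p under 0.05, all higher, none was called, and the median was 0.17. After median-of-ratios scaling the count was 3 higher and 1 lower, and a model of all 12 libraries gave 0 and 0. Without the first or the second library of 35S:KLU1 the count was 3 and 2 higher, and without the second library of 35S:KLU2 it was 3, with a median of 0.11 without the first of 35S:KLU1 and without the second of 35S:KLU2. CDC20.2, an activator of the anaphase-promoting complex, stood at 9.87, 11.52 and 11.44 against 13.84, 12.78 and 13.69 FPKM (difference 0.28, adjusted p = 0.371). Auxin, gibberellin, flavonoid and meristem genes each held 1 member at an unadjusted p under 0.05 and 0 called.

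Of the 21 tested genes of flowering, 2 were higher and 2 lower at an unadjusted p under 0.05, MAF5 among the lower. The shares over all tested genes were 9.49% and 1.07%. FLC itself stood at 4.13, 2.66 and 1.71 against 2.76, 3.66 and 1.71 FPKM, with the lines overlapping, and MAF1 at 72.61, 63.81 and 68.72 against 76.24, 72.76 and 71.01 FPKM (difference 0.10). FD, which acts with the florigen in the shoot apex, differed by 0.39.

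Marker lists were used to check the tissue. The 11 root and 11 flower markers were all under the filter, summing to 0.36 to 1.23 and 0.48 to 0.90 FPKM in the 6 libraries, and 1 of 12 seed markers was tested, with sums of 0.73 to 1.77 FPKM. Leaf mesophyll markers summed to 70510 to 79150 FPKM in the plants of 35S:KLU1 and 70760 to 75660 FPKM in those of 35S:KLU2, and none of the 12 reached an unadjusted p under 0.05. Phloem and companion cell markers summed to 553.8 to 568.2 against 582.2 to 630.6 FPKM, and 4 of 7 reached it, all higher, against 2 after scaling. Without scaling, 9.49% of all tested genes were higher at that threshold. SWEET12, a sucrose transporter of the phloem, stood at 26.94, 25.37 and 25.63 against 33.32, 36.72 and 31.66 FPKM (difference 0.37, adjusted p = 0.213). In bulk samples a larger share of a cell type and a higher level in each cell cannot be told apart.

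**Figure D4:**
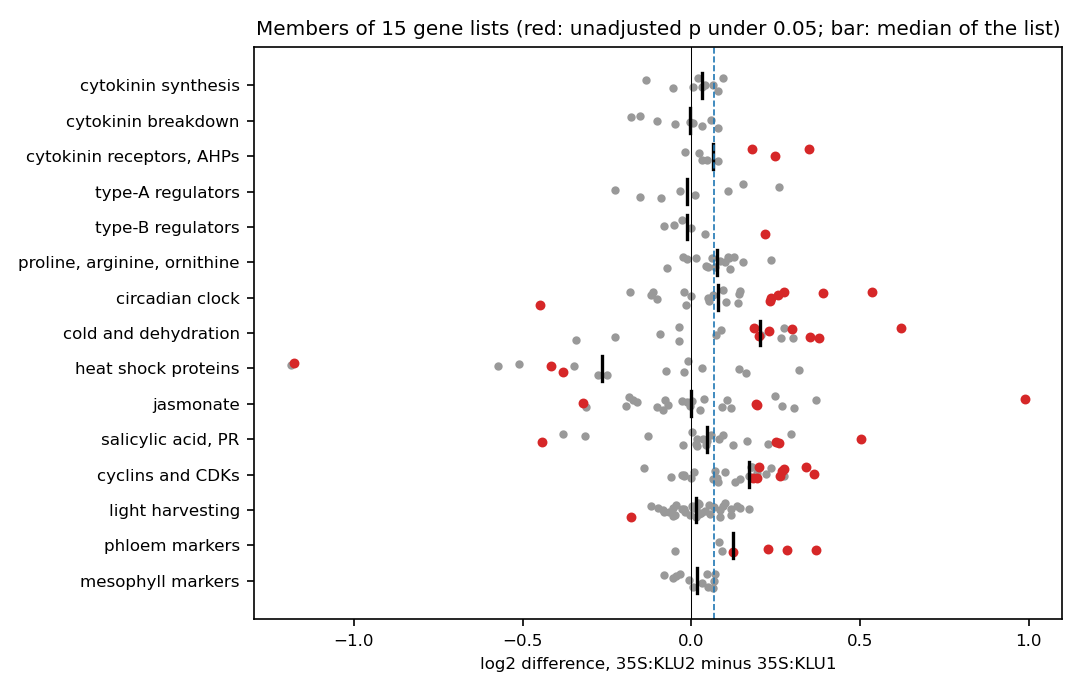
Differences between the lines (log2(FPKM + 1) scale) of the tested members of 15 gene lists, with a dot for each gene, red at an unadjusted p under 0.05, a bar for the median of the list and a dashed line at the median over all tested genes, 0.066. The median of the heat shock proteins lay below 0, at -0.26, and the type-A response regulators lay between -0.23 and 0.26.

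SAG12, a cysteine protease of ageing leaves, was under the filter in the lines, at 0 to 0.80 FPKM, against 5.11 to 47.13 FPKM in Col-0. Of the 20 tested genes of senescence 1, NYC1, reached an unadjusted p under 0.05 (difference 0.27). The light harvesting list held 0 higher and 1 lower of 35 at that threshold.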

How the data were processed

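Poly(A) RNA from single plants was sequenced as paired ends from a directional library. Per the labels and the study's methods, the authors mapped the reads with STAR to TAIR10, and the processing notes name RSEM 1.2.22; the strand setting of RSEM is not given in the sources used here. The deposited table holds FPKM for each gene and library. The columns of the authors' own DESeq2 comparisons (log2 fold change, p-value and adjusted p-value) were not used, and 0 columns of per-sample values were left unused. Because FPKM is not a count, limma 3.58.1 (R 4.3.3) was run with its trend option on log2(FPKM + 1) of the 6 libraries of the lines, for genes of at least 0.5 FPKM in at least 3 of them, two-sided and adjusted by Benjamini-Hochberg at 0.05. An exact permutation test of 3 against 3 cannot go below p = 0.1. The fit was tested on simulated data with normal errors drawn from its own variance estimates. That run held no groups listed at 0 and no reads shared between copies, so it cannot check the calls of such genes. Total depth was not known. Intervals are 95% confidence limits of the difference between the line means, based on the spread between plants. They do not cover variation between transformation events.

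Coordinates, sequences and gene names come from RefSeq TAIR10.1, and 600 of 606 list entries matched. The members of the comparison and the lists were chosen with earlier results of these data known. Genes are named by a rule: KLU and its family, every called gene with its neighbours, genes at 0 in 1 line and at 1 FPKM or more in the other, up to 10 a direction with the largest differences among genes that do not overlap, and up to 4 of each list by p. Alternatives are given in the closing section.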

Additional observations from a re-analysis of the deposited data

Results flagged for a closer look

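The 7 genes called between the lines are listed because the test on the 6 libraries of the lines gave them an adjusted p under 0.05. On the log2(FPKM + 1) scale the difference of 35S:KLU2 from 35S:KLU1 was 4.75 for MRD1, -2.57 for AT3G54363, -2.36 for MAF5, -1.55 for AT5G35935, -1.36 for AT2G24990, -1.43 for AT3G53403 and -2.24 for AT4G22230. MRD1, AT5G35935, AT3G54363, AT3G53403 and AT4G22230 met the filter only through the line where they stood higher. A model of all 12 libraries called only AT2G24990 and AT3G53403. Of the 7 genes, 3 are at 0 in 35S:KLU2 and have short transcripts, and no cause was tested for any of the 7.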

How the results depend on the processing

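Across the alternatives the count of called genes was 7 with no filter (5 of the 7 genes), 8 with a pseudocount of 0.1 (7 shared), 7 after median-of-ratios, upper-quartile and equal-sum scaling (the same 7), 9 without the trend (6 shared) and 7 with library weights. It was 2 with a minimum of 1 FPKM in all 6 libraries (MAF5 and AT2G24990). The other called genes were under that minimum and were not tested in that setting. It was 2 with a model of all 12 libraries, and 2 with a filter over 3 of the 12 libraries and that model, the last chosen after seeing the data. Leaving out 1 library at a time gave 5 to 11. MRD1, MAF5, AT3G54363 and AT5G35935 were called in all 6 of these fits, while AT4G22230 was called in 2 and AT3G53403 in 1. Signs turned in small differences: MAF2 (AGL31) stood at -0.018 after median-of-ratios, -0.021 after upper-quartile and -0.014 after equal-sum scaling, CYP78A9 at -0.039, -0.041 and -0.035 after the same scalings, and leaving out 1 library gave -0.031 to 0.110 for MAF2, -0.032 to 0.102 for CYP78A9 and -0.0025 to 0.122 for CKX1. The median half-width of the 95% interval was 0.385 under 1 FPKM and 0.14 above 100 FPKM, so small differences of low transcripts were not detectable.

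With the replicate number as a block, 3 genes were called (MRD1, MAF5 and AT3G54363). The numbers do not pair the plants: same-numbered deviations correlated at 0.014, -0.032 and -0.042.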
